A study of Mus musculus with 2 samples.

Results

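Heat shock proteins are molecular chaperones that bind unfolded proteins, and co-chaperones are the factors that steer their ATP cycle. The genes described here are 10 of the 53465 genes in the deposited table, chosen by symbol: Hspa1a, Hspa1b, Hspa8, Hsph1, Bag3, Dnajb1, Dnaja1, Hspb1, Hsp90aa1 and Hsp90ab1. They were read in endothelial cells, the lining of blood vessels, isolated from C57Bl/6 mice of the tie2-cre genotype and treated with NeuroD1 or with GFP, with 1 library per treatment. NeuroD1 drives neuronal differentiation as a transcription factor, and GFP is a fluorescent protein used as control. Both groups carry the Cre recombinase under the Tie2 promoter, which is active in endothelial cells and also in cells of the blood lineage. Cells of 3 mice were collected and 10000 cells lysed, per the labels, so that animal to animal spread cannot be seen. Vector, dose, age and time after treatment are not given in the sources used here.

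The HSP70 proteins, among them Hspa1a, Hspa1b and Hspa8, hold short stretches of unfolded protein and release them when ADP is exchanged for ATP. J-domain proteins such as Dnajb1 and Dnaja1 bring the substrate and start the ATP hydrolysis, while exchange factors such as Hsph1 and Bag3 open the nucleotide pocket again. Hspb1, a small heat shock protein, keeps unfolded proteins soluble without ATP, and the HSP90 proteins finish the folding of kinases and steroid receptors. On heat or proteotoxic stress the transcription factor Hsf1 drives the inducible members, and tissue dissociation is known to do so as well.

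Values are FPKM as deposited, counts scaled by exon length and by a factor for each library. Because the FPKM values are whole multiples of what 1 read is worth, whole reads could be recovered for 95.7% of genes and for all 10 members. Recovered reads came to 2001425 in the NeuroD1 library and 2011126 in the GFP library, of which 19 genes above 1000 FPKM took 57.4% and 52.3%. Neurod1 itself stood at 182 FPKM in the NeuroD1 library and 0.664 FPKM in the GFP library (970 and 4 reads). Of 17 pan-endothelial markers, 16 lay above the 95th percentile of 1473 chemoreceptor genes, receptors of odours, pheromones and taste that serve here as a measure of background, in each library. That percentile was 4.83 FPKM in NeuroD1 and 4.41 FPKM in GFP. Since each treatment has a single library, differences cannot be set against replicate spread and no p-values are given. Intervals are exact 95% Clopper-Pearson intervals of the reads and cover counting error only, as PCR copies may be among the reads. Between the libraries, protein-coding genes with at least 20 reads varied by 1.90 times their counting variance, and an interval whose variance is enlarged by that factor is called widened.

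Hspa1a and Hspa1b, the stress-inducible HSP70 genes, lie 9952 bases apart on GRCm38 chromosome 17 and are each a single exon. Hspa1b (ENSMUSG00000090877, chromosome 17, 34956436 to 34959238, minus strand) and Hspa1a (ENSMUSG00000091971, chromosome 17, 34969190 to 34972156, minus strand) are near-identical copies. Their coding sequences share 99.5% of aligned positions, with 7 mismatches, whereas their 3' UTRs align at 51.4%. Their promoters are shown because they are almost the same letters and because the pair carried the highest values of all members. RefSeq promoter sequences of GRCm38.p6, read 5' to 3' on the minus strand, cover the 220 bases before the start, chr17:34959239-34959458 for Hspa1b and chr17:34972157-34972376 for Hspa1a. Capitals mark an exact pair of inverted GAA and TTC units, the building block of the element that heat shock factors bind. Units with a mismatched base are not marked.
Hspa1b: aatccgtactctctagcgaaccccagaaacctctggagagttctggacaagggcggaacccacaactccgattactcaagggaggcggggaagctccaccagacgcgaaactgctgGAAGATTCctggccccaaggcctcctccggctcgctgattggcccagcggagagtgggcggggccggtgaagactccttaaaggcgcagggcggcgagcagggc
Hspa1a: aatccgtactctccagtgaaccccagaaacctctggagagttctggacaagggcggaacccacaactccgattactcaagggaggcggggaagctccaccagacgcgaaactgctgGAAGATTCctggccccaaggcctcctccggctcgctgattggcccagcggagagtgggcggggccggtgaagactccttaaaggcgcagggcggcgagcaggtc
Counted from 1 at the 5' end of these runs, and with the base of Hspa1b first, the copies differ by T14C, C17T and G219T, and the marked unit pair is the same in both.

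Hspa1b had the highest value of the members in both libraries, though in GFP it was not clear of Hspa1a. On the deposited scale Hspa1b was the only member whose interval excluded 1. It stood at 57.1 FPKM in the NeuroD1 library (312 reads) and 43.6 FPKM in the GFP library (270 reads), a ratio of 1.31 (interval 1.11 to 1.55, widened interval 1.05 to 1.64). Widened intervals excluded 1 for 3.98% of the protein-coding genes that reached 20 reads, most of them far less abundant than Hspa1b. The widening uses a single factor for genes of all levels, and no widened share was taken for genes as abundant as Hspa1b. Hspa1a stood at 42.0 FPKM in NeuroD1 and 39.4 FPKM in GFP, on 243 and 258 reads, a ratio of 1.07 (interval 0.892 to 1.28). On the deposited scale Hspa1b was thus higher in NeuroD1 beyond counting error, and Hspa1a was not separated. Of the reads that fell on either copy, Hspa1b took 56.2% in NeuroD1 (exact interval 52.0 to 60.4%) and 51.1% in GFP (exact interval 46.8 to 55.5%). These shares overlap, and the ratio of Hspa1b to Hspa1a reads was 1.23 times as large in NeuroD1 as in GFP, with an interval of 0.959 to 1.57. With the reads of both copies summed, 555 in NeuroD1 and 528 in GFP, the ratio was 1.19 (interval 1.05 to 1.34). No widened interval was taken for the sum.

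The difference of Hspa1b was of the size usual for genes this abundant. Of the 188 protein-coding genes that reached a mean of 20 FPKM and 20 reads, 58.5% had an interval clear of 1 and 55.9% had it above 1. Of all 14791 that reached 20 reads, 5.93% had it above 1 and 6.22% below. Among the 48 protein-coding genes with a mean of 50 to 1000 FPKM, the median FPKM ratio of NeuroD1 over GFP was 1.25. The call also rested on the scaling. With ratios scaled by each library's total of recovered reads, Hspa1b had a ratio of 1.16 and an interval of 0.983 to 1.37. The summed reads of the pair were not scaled in this way.

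**Figure D1:**
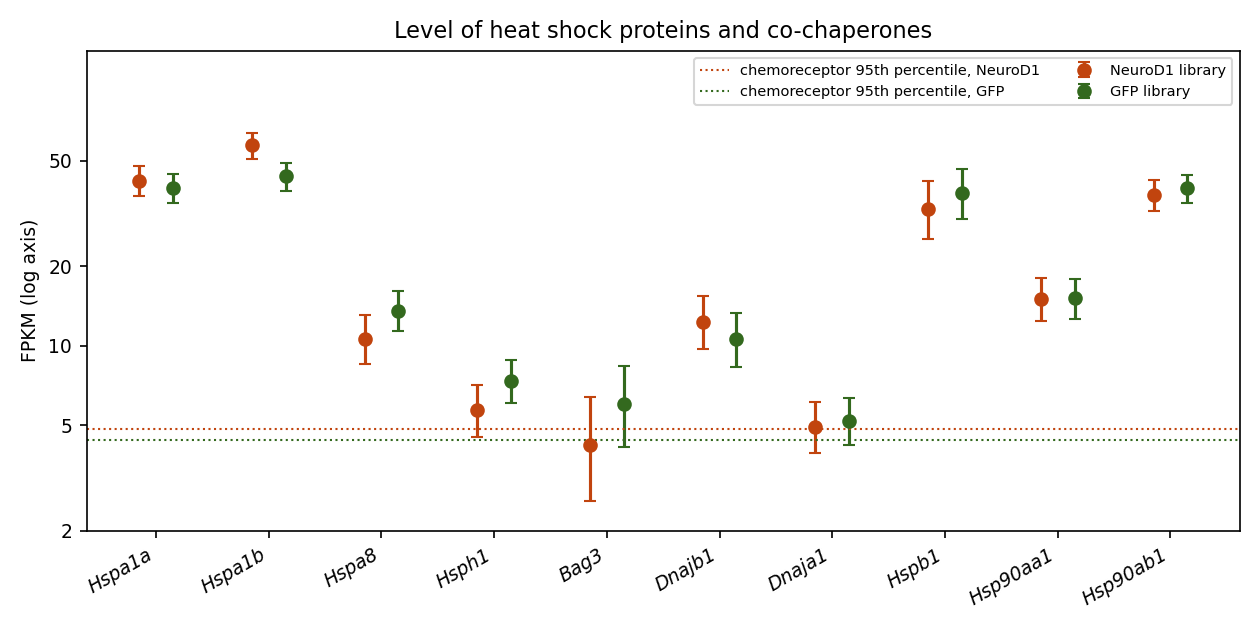
FPKM of each member on a log axis, with the NeuroD1 library left of the GFP library; points are the deposited values, bars exact 95% Poisson intervals of the recovered reads, and dotted lines the 95th percentile of chemoreceptor genes in each library. Hspa1b is at 57.1 FPKM in NeuroD1 and 43.6 FPKM in GFP, and Bag3 in NeuroD1, at 4.203 FPKM, is below the NeuroD1 line of 4.83 FPKM.

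Hspa8, the constitutive HSP70 of the cytosol (ENSMUSG00000015656, chromosome 9, 40800984 to 40810087, plus strand), was on the other side of 1. It stood at 10.6 FPKM in the NeuroD1 library and 13.6 FPKM in the GFP library, on 89 and 129 reads, a ratio of 0.781 with an interval of 0.590 to 1.03. The inducible pair together stood at 99.1 FPKM in NeuroD1 and 83.0 FPKM in GFP. That was 9.34 times the level of Hspa8 in NeuroD1 and 6.11 times in GFP, so transcripts of the inducible genes exceeded those of the constitutive gene in both libraries on this scale. Set as reads within each library, which needs no scaling between them, the pair took 86.2% of HSP70 reads of these 3 genes in NeuroD1 (exact interval 83.3 to 88.8%) and 80.4% in GFP (exact interval 77.1 to 83.3%). The ratio of inducible to constitutive reads was 1.52 times as large in NeuroD1 as in GFP, with an interval of 1.12 to 2.07 and a widened interval of 1.01 to 2.29.

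That shift between inducible and constitutive HSP70 was chosen after the values were seen, and further measurements stand beside it. Abundant genes were higher in NeuroD1 in general: the median ratio was 1.25 for protein-coding genes with a mean of 50 to 1000 FPKM, the class of Hspa1b. It was 1.18 in the class of Hspa1a (20 to 50 FPKM) and 1.09 in that of Hspa8 (10 to 20 FPKM). Hspa8 also shares sequence with processed pseudogenes, copies of its messenger RNA in the genome. With the reads of 5 such pseudogenes added, Hspa8 had 148 reads in NeuroD1 and 184 in GFP, a ratio of 0.911 (interval 0.729 to 1.14). The ratio of inducible to constitutive reads was then 1.31 times as large in NeuroD1, with a counting interval of 1.01 to 1.69. No widened interval was taken for it, so it is not shown to be clear of 1 beyond the variance between the libraries. The part of the level trend in the shift was not tested.

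Of the J-domain proteins, neither was separated between the libraries. Dnajb1, the main HSP40 partner of inducible HSP70 (ENSMUSG00000005483, chromosome 8, 83608193 to 83612653, plus strand), stood at 12.3 FPKM in NeuroD1 and 10.6 FPKM in GFP, on 77 and 75 reads. Its ratio was 1.16 with an interval of 0.835 to 1.62. Dnaja1, a farnesylated J-domain protein (ENSMUSG00000028410, chromosome 4, 40722150 to 40737149, plus strand), stood at 4.93 FPKM in NeuroD1 and 5.19 FPKM in GFP, on 83 and 99 reads, with an interval of 0.701 to 1.28. The values of Dnaja1 lay just above the 95th percentile of chemoreceptor genes in both libraries. Per length, Dnajb1 stood at 2.50 times Dnaja1 in NeuroD1 and 2.04 times in GFP, and the change in that ratio, 1.22 on reads, had an interval of 0.777 to 1.93.

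The exchange factors Hsph1 and Bag3 had the lowest ratios together with Hspa8. Hsph1, a member of the HSP110 family (ENSMUSG00000029657, chromosome 5, 149614287 to 149636376, minus strand), had a level of 5.72 FPKM in the NeuroD1 library and 7.35 FPKM in the GFP library, on 81 and 118 reads. Its ratio was 0.777, with an interval of 0.579 to 1.04. Bag3, which links HSP70 to small heat shock proteins and to selective autophagy (ENSMUSG00000030847, chromosome 7, 128523616 to 128546981, plus strand), stood at 4.203 FPKM in NeuroD1 and 6.01 FPKM in GFP. Its 21 and 34 reads give a ratio of 0.6996 with an interval of 0.386 to 1.24, the widest of the members. Both intervals include 1. Bag3 in NeuroD1 was the only member value below the 95th percentile of chemoreceptor genes, and at the chemoreceptor median a gene of its length would hold 7.003 reads in NeuroD1 and 8.70 in GFP. Hsph1 and its HSP70 partner Hspa8 stood in nearly the same proportion in both libraries, at 0.539 of the Hspa8 level in NeuroD1 and 0.541 in GFP (ratio of read ratios 0.995, interval 0.660 to 1.499).

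With ratios scaled by each library's total of recovered reads, the intervals of these genes shifted down, to 0.523 to 0.915 for Hspa8 and 0.513 to 0.923 for Hsph1. Under that scaling these 2 were the members whose interval excluded 1, in place of Hspa1b. It lowers the ratios of all genes by the same factor. The share of protein-coding genes with an interval clear of 1 was not taken under it, so the count has no background beside it. The deposited FPKM carry a scaling that differs from this one, and the total of reads includes the 19 genes above 1000 FPKM.

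Hspb1, the small heat shock protein (ENSMUSG00000004951, chromosome 5, 135887919 to 135889563, plus strand), stood at 32.8 FPKM in NeuroD1 and 37.8 FPKM in GFP. The gene is short, with 1031 exon bases, and these levels rest on 66 and 86 reads, a ratio of 0.869 with an interval of 0.621 to 1.21. Its promoter is shown because it holds 2 of the unit pairs within 48 bases, at chr5:135887792-135887839 on the plus strand (RefSeq, GRCm38.p6), from 127 to 80 bases before the start; capitals again mark the GAA and TTC pairs.
Hspb1: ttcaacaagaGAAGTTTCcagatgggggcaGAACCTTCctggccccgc
The promoters of Hspa1a and Hspa1b, shown above, hold 1 exact unit pair in the corresponding stretch before the start.

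The HSP90 genes differed little between the libraries. Hsp90ab1, the constitutive HSP90 (ENSMUSG00000023944, chromosome 17, 45567775 to 45573271, minus strand), had a level of 37.1 FPKM in NeuroD1 and 39.2 FPKM in GFP, on 217 and 260 reads (ratio 0.945, interval 0.786 to 1.14). Hsp90aa1, its inducible counterpart (ENSMUSG00000021270, chromosome 12, 110690605 to 110702728, minus strand), had a level of 15.0 FPKM in NeuroD1 and 15.1 FPKM in GFP, on 115 and 131 reads (ratio 0.994, interval 0.767 to 1.29). The inducible gene took 34.6% of HSP90 reads in NeuroD1 (exact interval 29.5 to 40.0%) and 33.5% in GFP (exact interval 28.8 to 38.4%). The change of that ratio, 1.05, had an interval of 0.763 to 1.45, and a widened interval of 0.688 to 1.61.

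**Figure D2:**
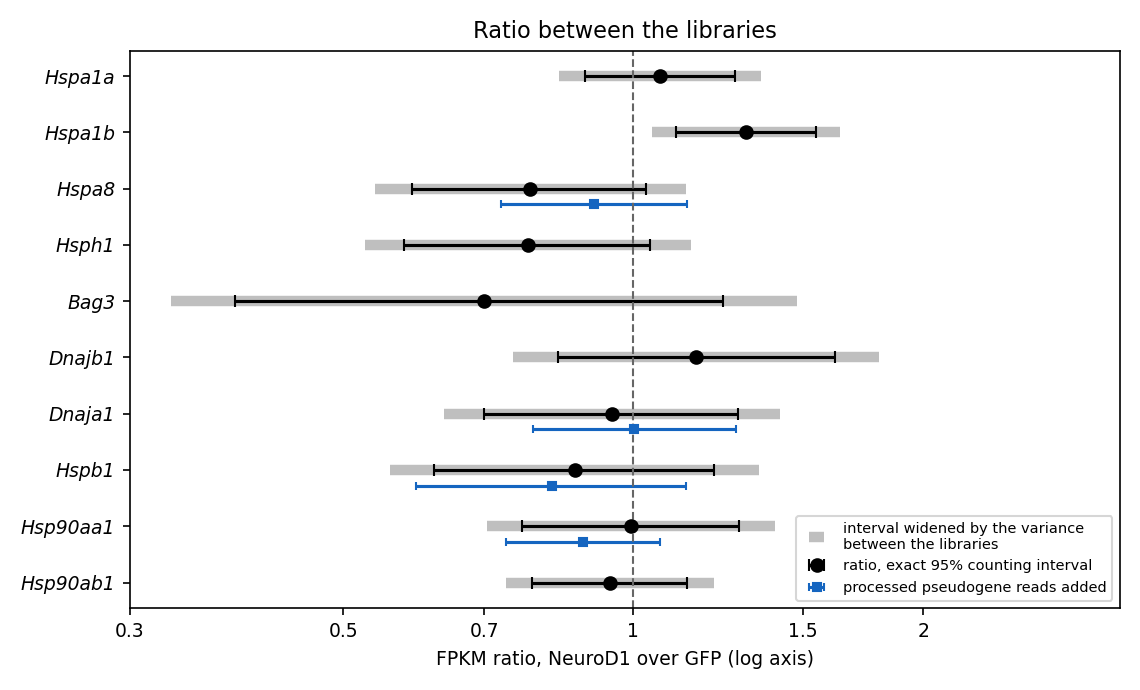
FPKM ratio of NeuroD1 over GFP for each member on a log axis; black points with exact 95% counting intervals, grey bars the intervals widened by the variance between the libraries, blue squares the ratio with processed pseudogene reads added. Of the 10 members, the interval of Hspa1b alone, 1.11 to 1.55, leaves out 1, and Hspa8 moves toward 1, to 0.911, with its pseudogene reads.

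Over the members, none passed a 2-fold difference, an absolute difference of at least 1 in log2(FPKM + 1), in either direction. Because of the added 1, a gene whose FPKM differs exactly 2-fold falls short of this threshold. Among all 14679 genes with at least 5 FPKM in at least 1 library 28.5% passed it, 12.9% higher and 15.6% lower. Among the 6408 protein-coding ones 6.55% passed it, 3.25% higher and 3.31% lower. On the same scale 3 members were above 0 (Hspa1a, Hspa1b and Dnajb1) and 7 below, while 54.1% of those protein-coding genes were above 0 and 45.9% below, and 51.6% of all genes were above 0 and 48.4% below. The members' differences ran between -0.43 for Bag3 and 0.38 for Hspa1b with a median of -0.07, against 0.04 for protein-coding genes. With the FPKM sums of the libraries set equal, which moved the median of protein-coding genes with at least 1 FPKM to -0.20, against -0.02 as deposited, Hspa1b alone of the members was above 0. The interval excluded 1 for 1 member of 10, and for 12.1% of 14791 protein-coding genes, most of them less abundant than the members' median. Of 188 such genes with a mean of at least 20 FPKM, 58.5% had an interval clear of 1. Of the members at that level, Hspa1b, Hspa1a, Hsp90ab1 and Hspb1, Hspa1b alone did.

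Set against genes of like level, the members lay low. For 8 of 10 the difference was below the median of protein-coding genes in the same class of mean FPKM, and for 6 (Hspa1a, Hspa8, Hsph1, Bag3, Hspb1 and Hsp90ab1) it was below the lower quartile of the class. None was above the upper quartile. Between 20 and 50 FPKM, 85.2% of 162 protein-coding genes were above 0 with a median of 0.23, while Hspa1a stood at 0.09, Hsp90ab1 at -0.08 and Hspb1 at -0.20. Between 10 and 20 FPKM the class median was 0.12, and Dnajb1 stood at 0.20, Hsp90aa1 at -0.01 and Hspa8 at -0.33. Between 5 and 10 FPKM it was 0.03, and Dnaja1 stood at -0.06, Hsph1 at -0.31 and Bag3 at -0.43. The members were chosen with earlier results of these data known, so these positions are a description and have no test.

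**Figure D3:**
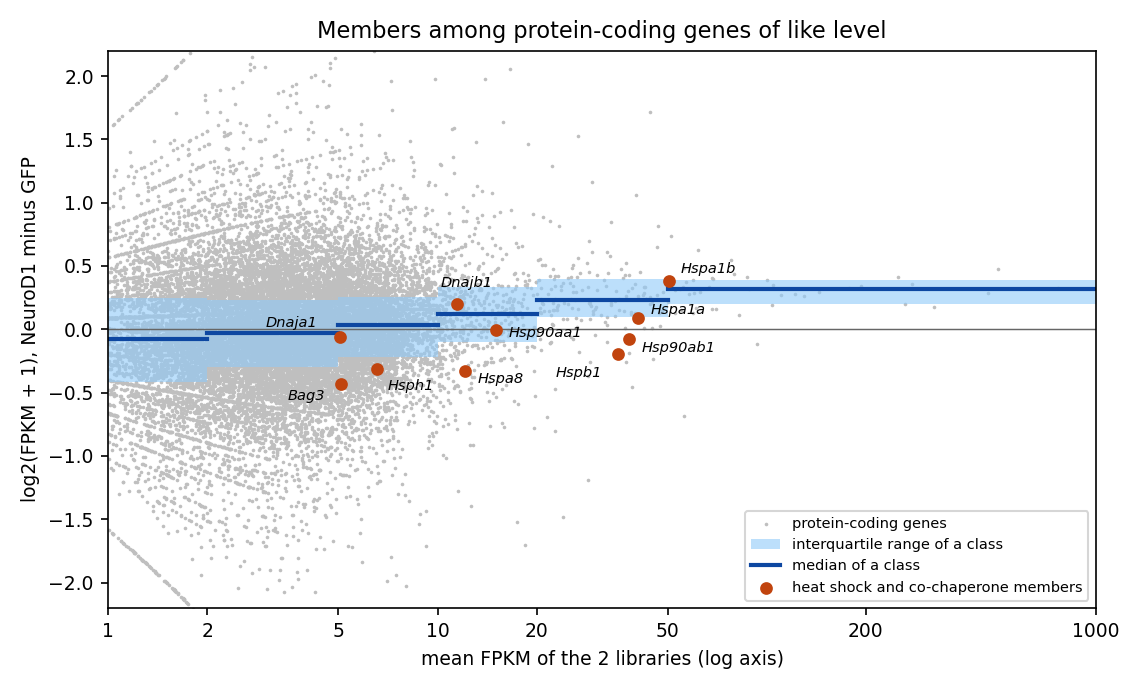
Difference in log2(FPKM + 1), NeuroD1 minus GFP, against the mean FPKM of the libraries on a log axis, for protein-coding genes (grey) and the members (orange); dark lines are medians and blue bands interquartile ranges of classes of mean FPKM, and genes beyond the axis are not drawn. The class median climbs with level, to 0.32 at 50 to 1000 FPKM, and Hspb1, Hsp90ab1, Hspa8, Hsph1, Bag3 and, narrowly, Hspa1a lie under their bands.

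The same 4 members made up the upper tier of level in both libraries. Per length, Hspa1b, Hspa1a, Hsp90ab1 and Hspb1 stood at 32.8 to 57.1 FPKM in NeuroD1 and 37.8 to 43.6 FPKM in GFP. Among 22040 protein-coding genes they ranked 57 to 126 in NeuroD1 and 63 to 82 in GFP. Hsp90aa1, Dnajb1 and Hspa8 followed at 10.6 to 15.0 FPKM in NeuroD1 and 10.6 to 15.1 FPKM in GFP, and Hsph1, Dnaja1 and Bag3 came last. Within the upper tier, neighbours had overlapping counting intervals in GFP, and in NeuroD1 Hspa1b alone was clear of the next, Hspa1a. The gap between Hspb1 and Hsp90aa1 exceeded counting error in both libraries, and so did that between Hspa8 and Hsph1, which are not neighbours in the order of the GFP library. Dnajb1 and Hspa8 exchanged places between the libraries, and so did Dnaja1 and Bag3, with overlapping intervals each time. Summed, the members stood at 221.8 FPKM in NeuroD1 and 217.8 FPKM in GFP. Exon length enters each level, and with primers at the 3' end of the transcript a long annotated exon set, such as the 8629 bases of Dnaja1, gives a lower FPKM for the same number of reads.

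How far the levels can be told from those of sequence relatives differed among the members. Of the distinct 50-base windows of Hspa1a transcripts in GENCODE M21, 66.3% also occur in transcripts of another gene on either strand, and of Hspa1b 62.3%, mostly in each other. For Hsp90aa1 the share was 47.5%, for Hspb1 50.1%, for Hspa8 39.4% and for Dnaja1 20.6%, with the largest overlap in a processed pseudogene each. Hsp90ab1, at 3.44%, Dnajb1, at 0.412%, and Hsph1 and Bag3, both at 0%, share next to nothing. In the coding part 82.2% of the Hspa1b windows recur in Hspa1a, and in the 3' UTR none do. Read length and the handling of reads with several matches are not given in the sources used here, so the split of reads between the copies is uncertain. Gm20481, which overlaps 19.0% of the Hspa1a exon on the opposite strand, was listed at 0 in both libraries. Smu1, on the strand opposite Dnaja1 and overlapping 7.05% of its exon bases, stood at 9.04 FPKM in NeuroD1 and 9.87 FPKM in GFP, and how strand was treated is not given.

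With pseudogene reads added, Hsp90aa1 had 213 reads in NeuroD1 and 272 in GFP, a ratio of 0.887 (interval 0.738 to 1.07) against 0.994 for the gene alone. Hspb1 moved to 0.823 (interval 0.594 to 1.13) and Dnaja1 to 1.003 (interval 0.786 to 1.28). All of these intervals include 1.

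**Figure D4:**
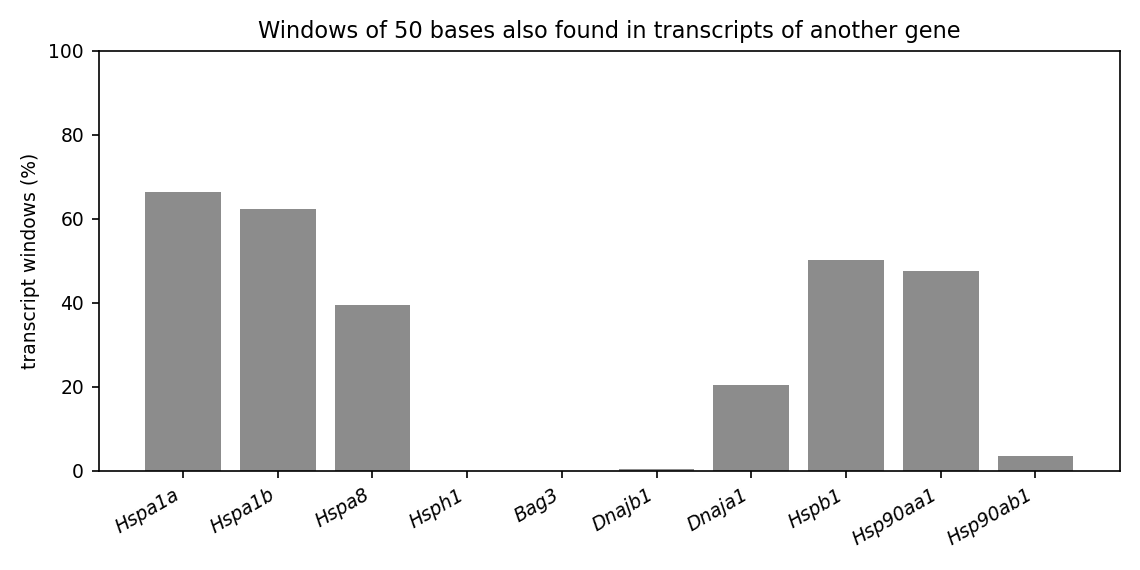
Percentage of the distinct 50-base windows of each member's GENCODE M21 transcripts that also occur in a transcript of another gene on either strand. Bars reach 66.3% for Hspa1a and 62.3% for Hspa1b, while Hsph1 and Bag3 are at 0%.

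Promoters of 7 members were in the RefSeq table, as 11 windows of 300 bases, 250 before and 50 after the start; Hspa8, Hsp90aa1 and Hsp90ab1 had none. The full heat shock element was searched as exact matches to GAANNTTCNNGAA or TTCNNGAANNTTC, which are each other's reverse complement. Elements with a mismatched base in a unit were not searched. The exact element stood in both windows of Hsph1, after the start, and in no other member window. Of all 32851 promoter windows 0.603% hold it. The shorter unit pair, GAANNTTC or TTCNNGAA, each its own reverse complement and contained in the full element, was searched after that result was seen. It stood in 7 of the 11 windows, of 6 genes, against 15.1% of all windows. Both Hsph1 windows overlap for most of their length, and those of Hspa1a and Hspa1b differ at 4 of 300 bases. The windows are therefore not independent, and their count cannot be weighed against that share. Before the start the pair stood in 5 genes, and no share of all windows was taken for that part alone. Dnajb1 had no exact match in either window.

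Around the members, 8 lists of other chaperones, their co-chaperones, heat shock factors and genes of endoplasmic reticulum stress held 110 genes, of which 109 reached 1 FPKM in at least 1 library. Of these 1 was at least 2-fold higher in NeuroD1 (Cryab) and 2 at least 2-fold lower (Dnajc30 and Hspb2). Among 20697 protein-coding genes past the same minimum 6.46% passed 2-fold, 2.62% higher and 3.84% lower. The median difference was -0.02, as for those protein-coding genes, and of the 86 with enough reads 15.1% had intervals clear of 1, against 12.1% of protein-coding genes. Most of these chaperones were less abundant than the members, with a median of 4.52 FPKM over the mean of the libraries against 13.6 FPKM for the members. Only 2 of the 109 were above the members' median.

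Other HSP70 genes had a median difference of 0.13, with 7 of 11 above 0. Hyou1, an HSP70 relative of the endoplasmic reticulum, stood at 10.8 FPKM in NeuroD1 and 7.89 FPKM in GFP (ratio 1.37, interval 1.07 to 1.74), and Hspa12b, an endothelial HSP70 relative, at 6.82 FPKM in NeuroD1 and 5.04 FPKM in GFP (interval 0.876 to 2.10). Hspa5, the HSP70 of the endoplasmic reticulum, stood at 11.6 FPKM in NeuroD1 and 11.8 FPKM in GFP (interval 0.744 to 1.31). The testis-enriched Hspa2 stood at 5.82 FPKM in NeuroD1 and 4.28 FPKM in GFP, with an interval of 0.773 to 2.41. Of this list Hyou1 alone had an interval that excluded 1.

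The other 35 J-domain genes had a median of 0.01, with 18 above 0. Dnajc7, a co-chaperone that binds both HSP70 and HSP90, was the most abundant at 24.99 FPKM in NeuroD1 and 17.3 FPKM in GFP (237 and 186 reads, ratio 1.44, interval 1.19 to 1.76). Dnajb12, a J-domain protein of the endoplasmic reticulum membrane, stood at 3.805 FPKM in NeuroD1 and 6.85 FPKM in GFP (ratio 0.555, interval 0.330 to 0.913). Dnajc30, a mitochondrial J-domain protein, had 4 reads in NeuroD1 and 19 in GFP (ratio 0.238, interval 0.0590 to 0.718). Dnajc17, linked to splicing, stood at 8.23 FPKM in NeuroD1 and 5.54 FPKM in GFP (interval 0.739 to 3.05). Dnajc28 stood at 4.03 FPKM in NeuroD1 and 6.23 FPKM in GFP, with no recovered reads. Intervals lay above 1 for 3 genes of the list and below 1 for 3.

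The remaining exchange factors and HSP70 regulators had a median of -0.07, with none past 2-fold and no interval that excluded 1. Bag6 stood at 8.09 FPKM in both libraries, on 98 reads in NeuroD1 and 111 in GFP. Hspbp1, an exchange factor, stood at 5.96 FPKM in NeuroD1 and 7.90 FPKM in GFP (interval 0.419 to 1.33), Bag1 at 5.32 FPKM in NeuroD1 and 4.03 FPKM in GFP (interval 0.567 to 3.13), and the HSP70-binding St13 at 6.82 FPKM in NeuroD1 and 7.99 FPKM in GFP, with no recovered reads.

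HSP90 relatives and co-chaperones had a median of 0.04, with 10 of 17 above 0. Stip1, the adaptor that hands clients between HSP70 and HSP90, stood at 12.3 FPKM in NeuroD1 and 6.67 FPKM in GFP, with no interval, since no reads were recovered. Unc45a, a myosin chaperone, stood at 6.19 FPKM in NeuroD1 and 8.78 FPKM in GFP (ratio 0.705, interval 0.504 to 0.980). The p23 co-chaperone gene Ptges3 stood at 10.6 FPKM in NeuroD1 and 11.8 FPKM in GFP (interval 0.596 to 1.35).

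Small heat shock proteins other than Hspb1 ran between differences of -1.40 for Hspb2 and 1.26 for Cryab. Of 8 genes, 5 were above 0, and the median was 0.27. Cryab, alpha-B-crystallin, stood at 7.97 FPKM in NeuroD1 and 2.75 FPKM in GFP, on 23 and 9 reads (ratio 2.89, interval 1.29 to 7.11). Hspb8, the partner of Bag3, stood at 7.63 FPKM in NeuroD1 and 3.95 FPKM in GFP, on 29 and 17 reads (ratio 1.93, interval 1.03 to 3.75). Hspb2, named after its values were seen, had 2 reads in NeuroD1 and 9 in GFP (interval 0.0265 to 1.22). Both Cryab and Hspb8 lay above the 95th percentile of chemoreceptor genes in NeuroD1 and below it in GFP.

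Chaperonins, which fold actin and tubulin in the cytosol and imported proteins in mitochondria, had a median of -0.03. Hspd1, the mitochondrial HSP60, stood at 7.76 FPKM in NeuroD1 and 6.85 FPKM in GFP (40 reads each, interval 0.712 to 1.80). Of the subunits of the cytosolic ring, Cct4 stood at 7.20 FPKM in NeuroD1 and 7.44 FPKM in GFP (interval 0.672 to 1.39), Cct3 at 6.20 FPKM in NeuroD1 and 5.12 FPKM in GFP (interval 0.867 to 1.69), and Cct2 at 5.21 FPKM in NeuroD1 and 7.44 FPKM in GFP (interval 0.413 to 1.17). None of the 10 genes had an interval that excluded 1.

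Of the 6 heat shock factors and regulators, 2 lay above the 95th percentile of chemoreceptor genes in NeuroD1 and 1 in GFP. Hsf1 stood at 2.69 FPKM in NeuroD1 and 3.01 FPKM in GFP, with no recovered reads. Hsf2 stood at 2.46 FPKM in NeuroD1 and 3.86 FPKM in GFP (46 and 82 reads, ratio 0.635, interval 0.433 to 0.923). Hsf4, the factor known from the lens, stood at 6.43 FPKM in NeuroD1 and 2.84 FPKM in GFP (22 and 11 reads, interval 1.05 to 5.17). Hsf2 in both libraries and Hsf4 in GFP lay below the chemoreceptor percentile. Exclusion of 1 was also seen for 10.8% of the 630 chemoreceptor genes that reached 20 reads. At background level it does not by itself show a difference in expression. Hsf2bp stood at 6.04 FPKM in NeuroD1 and 5.63 FPKM in GFP, with no recovered reads. Hsf1 and Hsf2 are outside the naming rule and were named for their role after their values were seen. The list's median was -0.09, with 2 of 6 above 0.

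Genes of the endoplasmic reticulum stress response had a median of -0.02, with 8 of 18 above 0 and none past 2-fold. Canx, the lectin chaperone calnexin, stood at 7.43 FPKM in NeuroD1 and 12.5 FPKM in GFP (68 and 130 reads, ratio 0.592, interval 0.435 to 0.800). Calr, its soluble relative, stood at 15.5 FPKM in NeuroD1 and 17.4 FPKM in GFP (interval 0.663 to 1.19), and the stress factors Atf4 and Ddit3 at 12.2 and 8.08 FPKM in NeuroD1 against 13.4 and 10.6 FPKM in GFP.

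**Figure D5:**
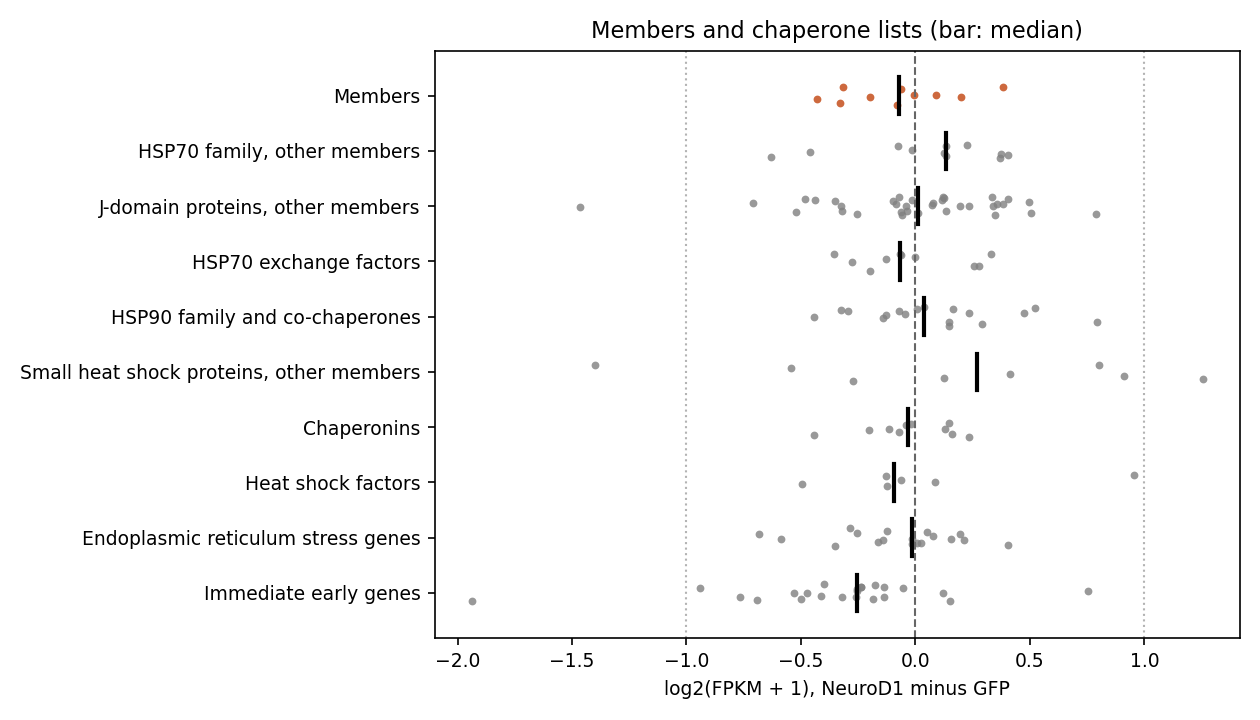
Difference in log2(FPKM + 1), NeuroD1 minus GFP, for the members (orange) and the genes of each chaperone list and of the immediate early list (grey); vertical bars are medians, dotted lines mark the 2-fold difference. The members' median is -0.07 and that of the immediate early genes -0.26.

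Immediate early genes, which like the inducible chaperones respond to cell isolation, were measured beside them. Their median difference was -0.26, with 3 of 23 above 0. Of protein-coding genes that reached 1 FPKM in at least 1 library, 48.4% were above 0. The list's median level was 12.8 FPKM in NeuroD1 and 15.4 FPKM in GFP. In that class, a mean of 10 to 20 FPKM, 65.2% of protein-coding genes were above 0. For 20 of the 23 the reads sufficed, and 6 intervals lay below 1 and 1 above. Among protein-coding genes 6.22% lay below and 5.93% above. Ier3 stood at 41.3 FPKM in NeuroD1 and 48.8 FPKM in GFP (interval 0.637 to 1.12) and Fos at 35.8 FPKM in NeuroD1 and 40.8 FPKM in GFP (interval 0.710 to 1.08), levels of the upper tier of chaperones. Egr1 stood at 7.43 FPKM in NeuroD1 and 13.3 FPKM in GFP (interval 0.408 to 0.756), and Jund at 12.6 FPKM in NeuroD1 and 7.06 FPKM in GFP (interval 1.07 to 3.04). Ier5, the 1 gene of the list past 2-fold, stood at 2.504 FPKM in NeuroD1 and 12.4 FPKM in GFP (interval 0.110 to 0.345). Their part in the values of the chaperones was not tested.

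Markers of the cell types an isolate can hold were summed in each library. The 17 pan-endothelial markers came to 270.3 FPKM in NeuroD1 and 239.4 FPKM in GFP. Their median difference in log2(FPKM + 1) was 0.21, with 12 above 0. Among all protein-coding genes, 65.2% were above 0 at a mean of 10 to 20 FPKM (median 0.12). At 2 to 5 FPKM 46.8% were above 0 (median -0.03). The 12 neuron markers came to 68.0 FPKM in NeuroD1 and 56.0 FPKM in GFP, with a median of 0.35 and 8 above 0. Rbfox3 made up the largest share of that sum, at 31.0 FPKM in NeuroD1 and 26.8 FPKM in GFP. The 13 microglia markers came to 47.4 FPKM in NeuroD1 and 53.1 FPKM in GFP, with a median of -0.32 and 11 below 0. Among them Tyrobp, the most abundant, went the other way, at 17.7 FPKM in NeuroD1 and 11.5 FPKM in GFP. The 13 blood cell markers came to 68.7 FPKM in NeuroD1 and 79.0 FPKM in GFP (median -0.05, 7 below 0), and 12 mural cell markers to 43.9 FPKM in NeuroD1 and 47.2 FPKM in GFP (median -0.20, 8 of 11 measured below 0). The 11 oligodendrocyte lineage markers came to 37.1 FPKM in NeuroD1 and 35.8 FPKM in GFP (median 0.04), and the 10 astrocyte markers to 29.8 FPKM in NeuroD1 and 29.4 FPKM in GFP (median 0.07). None of these markers was at 0 in either library. Above the 95th percentile of chemoreceptor genes lay at most 4 markers of any non-endothelial list in NeuroD1 and at most 7 in GFP. Their part in the values of the chaperones was not tested, and in a bulk sample fewer cells of a type and less RNA per cell cannot be told apart.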

How the data were processed

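Expression was measured in 1 NeuroD1 and 1 GFP library. The authors deposited a table of FPKM values holding both libraries. Per the submitters' processing notes, GRCm38, featureCounts 1.6.3, Bowtie2 2.3.5.1 and an unversioned DESeq were used. No source used here states how strand, multiply matching reads or molecular identifiers were handled.

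To recover reads, each FPKM was multiplied by the gene's merged exon bases (GENCODE M21, on GRCm38) and divided by the product that 1 read gives, 513 in NeuroD1 and 453 in GFP. Values within 0.02 of a whole number in both libraries, 51161 genes, were taken as reads; 2304 genes have none. Differences are log2(FPKM + 1), NeuroD1 minus GFP, a scale that understates low genes. Ratios of FPKM carry exact Clopper-Pearson 95% intervals of the reads. Widened intervals are normal intervals of the log ratio with the variance multiplied by 1.90, and ratios of read ratios have exact conditional intervals. The median protein-coding gene had 20 reads in NeuroD1 and 24 in GFP.

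The members and gene lists were chosen with earlier results of these data known. Named genes were all members and, of each list, up to 3 with the largest differences at 5 FPKM or more in at least 1 library and the 2 of highest mean FPKM; others are said to be outside it, and a gene the rule names is not reported here. Protein identity was replaced by identity of coding sequence, since no protein table was used here.

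The reading back of counts, the intervals and the 2-fold call were checked on simulated counts, where the 2-fold call missed most genes changed by exactly that fold. Those counts carried counting error alone and were built on the same read values and exon lengths. The check therefore does not cover the further variance between the libraries. Alternatives were other pseudocounts, FPKM minimums, scalings and intervals. Chosen after seeing the data were background subtraction, added pseudogene reads, widened intervals, read shares, the summed Hspa1 interval and the shorter promoter motif. Python 3.11.15, numpy 2.4.6, scipy 1.17.1, pandas 2.3.3, Biopython 1.88 and matplotlib 3.10.9 were used.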

Additional observations from a re-analysis of the deposited data

How the results depend on the processing

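No paired analysis was possible because NeuroD1 and GFP have 1 library each, and for the same reason no replicate could be left out. No member passed 2-fold in either direction under any of the pseudocounts, scalings and minimums run. Of the 3 members above 0, 1 (Hspa1b) was above 0 with the FPKM sums of the libraries set equal, a scaling that moves all genes alike, and of the 7 below 0, 2 are left at an FPKM of at least 20, where fewer members are counted. With the chemoreceptor median subtracted, 4 were above 0, since Hsp90aa1 moved to 0.0049. The count of members whose interval excludes 1 was 1 at first and 2 with ratios scaled by the total of recovered reads. There Hspa8 and Hsph1 replaced Hspa1b, and no share over all genes was taken under that scaling. At a minimum of 5 FPKM the medians were 1.03 for small heat shock proteins and 0.52 for heat shock factors, but Cryab, Hspb8 and Hsf4 pass that minimum through the NeuroD1 library alone, so these medians show no direction. Member genes with an exact match of the promoter element numbered 1 for 3 units and 6 for 2 units. Single members moved by less than counting error in all 56 alternative values, intervals that are wide at these reads.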

Other observations

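Processed pseudogenes that share at least 5% of the 50-base windows of a member held reads of their own. Gm12346, which shares 41.8% of the windows of Hsp90aa1, stood at 14.8 FPKM in NeuroD1 and 17.5 FPKM in GFP, close to the level of Hsp90aa1 itself. Gm5844, sharing 29.9% with the same gene, stood at 6.79 FPKM in NeuroD1 and 10.7 FPKM in GFP. For Hspa8, Gm8355 stood at 8.72 FPKM in NeuroD1 and 7.93 FPKM in GFP, while Gm15459, with the largest share of its windows, was listed at 0 in both. For Dnaja1, Gm15542 stood at 12.02 FPKM in NeuroD1 and 12.5 FPKM in GFP, above Dnaja1 in both libraries. Hsp25-ps1, which shares 48.8% of the windows of Hspb1, had 3 reads in NeuroD1 and 9 in GFP. Relatives that are not pseudogenes were left out of the added reads. For Hspb1, the protein-coding entry Gm9817, sharing 38.3% of the windows, had 2 reads in NeuroD1 and 9 in GFP. For Hspa8, the noncoding Gm26825, sharing 34.0%, had 5 reads in NeuroD1 and 1 in GFP.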
